A study of Mus musculus with 19 samples.

Results

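Genes that hold T cells at rest were followed across 19 arrays of sorted mouse CD4+ T cells. They were the transcription factor genes Foxo1, Foxo3 and Foxp1, the PI3K brakes Pik3ip1 and Inpp5d, and the antiproliferative genes Tob1 and Btg1. These 7 of the 9930 genes tested were chosen by name, with earlier results of these data known. Each was read from the probe set of that gene alone with the highest mean on the array (1416983_s_at for Foxo1, 1434831_a_at for Foxo3, 1435222_at for Foxp1, 1428332_at for Pik3ip1, 1418110_a_at for Inpp5d, 1423176_at for Tob1 and 1426083_a_at for Btg1). All 7 passed the filter on low values (log2 4 on at least 2 arrays). The cells came from C57BL/6J mice. A protocol text shared by all samples states that OT-II cells, whose transgenic receptor sees ovalbumin, heterozygous for a BCL6-YFP reporter allele, Bcl6yfp/+, were transferred into recipients. The recipients were immunized subcutaneously with NP-OVA (hapten-coupled ovalbumin) in CFA, complete Freund's adjuvant. From their draining lymph nodes came CXCR5hi PD-1hi cells, the phenotype of follicular helper T (Tfh) cells, that were YFP-positive (n = 4, of which 3 at day 7 and 1 at day 10) or YFP-negative (n = 4, with 2 at each day). CXCR5lo PD-1lo cells (n = 3, day 7) were sorted from such lymph nodes too. A further pair of groups were CXCR5hi PD-1hi cells of Bcl6yfp/+ (n = 3, day 7) and Bcl6+/+ genotype (n = 3, of which 1 at day 7 and 2 at day 10), not divided by YFP. The shared text cannot hold for the Bcl6+/+ cells, which lack the reporter, or for the naive cells (n = 2), which were spleen CD44lo CD62Lhi cells of mice that had not been immunized. The sources used here give no age, sex or number of animals per array, so p-values measure only how far these samples scatter, and that scatter may be technical. The number of arrays limits the precision.

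FOXO proteins are transcription factors that switch on genes of survival, homing and cell cycle arrest in resting T cells. When the antigen receptor or a costimulatory receptor activates PI3K, the kinase AKT phosphorylates FOXO proteins and they leave the nucleus. FOXP1 is a forkhead factor that keeps naive T cells quiescent and restrains their Tfh differentiation. PIK3IP1 is a membrane protein that inhibits the catalytic subunit of PI3K, and SHIP1, the product of Inpp5d, removes a phosphate from the lipid that PI3K makes. TOB1 and BTG1 belong to 1 family and bind the CCR4-NOT complex, which shortens the poly(A) tails of mRNAs.

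The promoters are shown for 4 genes. Pik3ip1 and Tob1 were lower in YFP-positive than in YFP-negative cells in every pair of arrays with the same replicate number. The same held for Foxp1, Btg1 and Foxo3, the last not shown, and for 20.7% of all genes. Foxp1 and Btg1 are shown because their windows hold matches to a forkhead motif. Each window is the 250 bases before a RefSeq start of assembly GRCm38.p6, 5′ to 3′ on the gene's own strand, and capitals mark matches to the forkhead motif core TAAACA, or to the longer GTAAACA, which contains it, on either strand.
Pik3ip1 (chr11:3330481-3330730, plus strand): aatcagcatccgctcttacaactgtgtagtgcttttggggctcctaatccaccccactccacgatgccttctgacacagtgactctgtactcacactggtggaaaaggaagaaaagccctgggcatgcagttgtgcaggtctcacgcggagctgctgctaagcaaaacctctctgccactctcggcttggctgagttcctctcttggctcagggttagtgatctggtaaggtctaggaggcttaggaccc
Tob1 (chr11:94211204-94211453, plus strand): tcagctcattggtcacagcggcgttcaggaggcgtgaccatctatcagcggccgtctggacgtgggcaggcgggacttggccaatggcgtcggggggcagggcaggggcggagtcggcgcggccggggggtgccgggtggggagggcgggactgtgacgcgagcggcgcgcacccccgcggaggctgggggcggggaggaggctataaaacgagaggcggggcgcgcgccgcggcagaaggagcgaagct
Foxp1, middle start (chr6:99266516-99266765, minus strand): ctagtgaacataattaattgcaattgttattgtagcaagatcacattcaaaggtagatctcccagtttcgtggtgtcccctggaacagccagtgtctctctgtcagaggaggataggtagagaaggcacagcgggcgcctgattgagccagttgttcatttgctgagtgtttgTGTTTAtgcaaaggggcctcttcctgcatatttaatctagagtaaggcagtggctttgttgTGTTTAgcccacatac
Btg1 (chr10:96616751-96617000, plus strand): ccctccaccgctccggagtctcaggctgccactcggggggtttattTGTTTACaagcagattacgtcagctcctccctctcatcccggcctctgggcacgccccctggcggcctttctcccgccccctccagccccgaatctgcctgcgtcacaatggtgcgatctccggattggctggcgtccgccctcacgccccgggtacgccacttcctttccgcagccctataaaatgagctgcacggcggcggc
All 7 genes had a window, and Foxp1 had 3 listed starts, which gave 9 windows. The longer motif was found in 1 of the 9, that of Btg1, where the match begins 204 bases before the start, and in 3.17% of all 32851 windows. The core was found in 4 of the 9, those of Btg1 and of every listed Foxp1 start, and in 12% of all windows. In the Foxp1 window shown, the matches begin 77 and 16 bases before the start. The windows of Pik3ip1, Tob1, Foxo1, Foxo3 and Inpp5d held no match. The gene spans of Pik3ip1 (from chr11:3319241), Tob1 (from chr11:94209842) and Foxp1 (to chr6:99522746) reach further upstream than these windows. Starts outside the list were not searched.

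The labelled identity of the cells was checked on marker genes. The 4 T cell genes Cd3e, Cd3g, Cd4 and Cd28 had mean log2 values of 13.48 or more on every array. The 5 Tfh genes (Cxcr5, Pdcd1, Bcl6, Il21, Il4) averaged log2 4.73 to 4.97 on naive arrays, 8.83 to 10.20 on CXCR5lo PD-1lo arrays and 12.67 or more on CXCR5hi PD-1hi arrays. The CXCR5lo PD-1lo arrays lay between the naive and Tfh arrays on this list. Of 9 B cell genes 1, Cd79b, passed the filter, at log2 5.26 to 5.36 in CXCR5lo PD-1lo cells and at most 2.81 elsewhere, and of 9 myeloid genes 3 did, with mean levels of 2.45 to 6.36 per array. Jchain, a plasma cell gene, reached log2 7.72 to 10.53 in CXCR5lo PD-1lo cells and up to 12.42 in YFP-negative cells, in which the myeloid gene Lyz2 reached 10.98. The part of other cells in the results was not tested. Of 10 proliferation genes 9 were measured, and their mean per array was 5.20 to 5.92 in naive, 7.51 to 10.77 in CXCR5lo PD-1lo, 9.40 to 12.20 in YFP-positive and 7.05 to 10.14 in YFP-negative cells.

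Pik3ip1 varied most of the 7 genes, over 3.70 log2 units between its lowest and highest array. The log2 values were 12.81 and 12.95 in naive cells, and 12.47, 12.65 and 12.70 in CXCR5lo PD-1lo cells. YFP-negative cells gave 10.47, 10.69, 10.85 and 11.49, and YFP-positive cells 9.25, 9.95, 10.06 and 10.33. The naive, CXCR5lo PD-1lo and CXCR5hi PD-1hi arrays did not overlap, and every YFP-positive array lay below every YFP-negative one. What share of all genes separates groups this small in the same way was not computed, here or for the other genes below. Such separation is therefore only a description of the values. Cells not divided by YFP lay in the same low range, at 9.80, 10.66 and 10.73 in Bcl6yfp/+ and 10.63, 10.66 and 10.76 in Bcl6+/+ cells. Foxp1 and Tob1 moved over smaller ranges, 1.69 and 2.18 log2 units. For Foxp1 the log2 values were 12.99 and 13.21 in naive, 12.69, 12.82 and 13.13 in CXCR5lo PD-1lo, 11.95, 12.34, 12.62 and 12.93 in YFP-negative and 11.62, 11.83, 12.21 and 12.28 in YFP-positive cells. The YFP-positive arrays lay below all CXCR5lo PD-1lo and naive arrays and overlapped the YFP-negative ones. Tob1 read 10.81 and 10.93 in naive, 10.61, 10.71 and 11.59 in CXCR5lo PD-1lo, 10.22, 10.37, 10.46 and 10.95 in YFP-negative and 9.42, 9.49, 10.07 and 10.41 in YFP-positive cells. Here too the YFP-positive arrays lay below all CXCR5lo PD-1lo and naive arrays, and CXCR5lo PD-1lo replicate 2 was the highest of all 19 arrays.

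**Figure D1:**
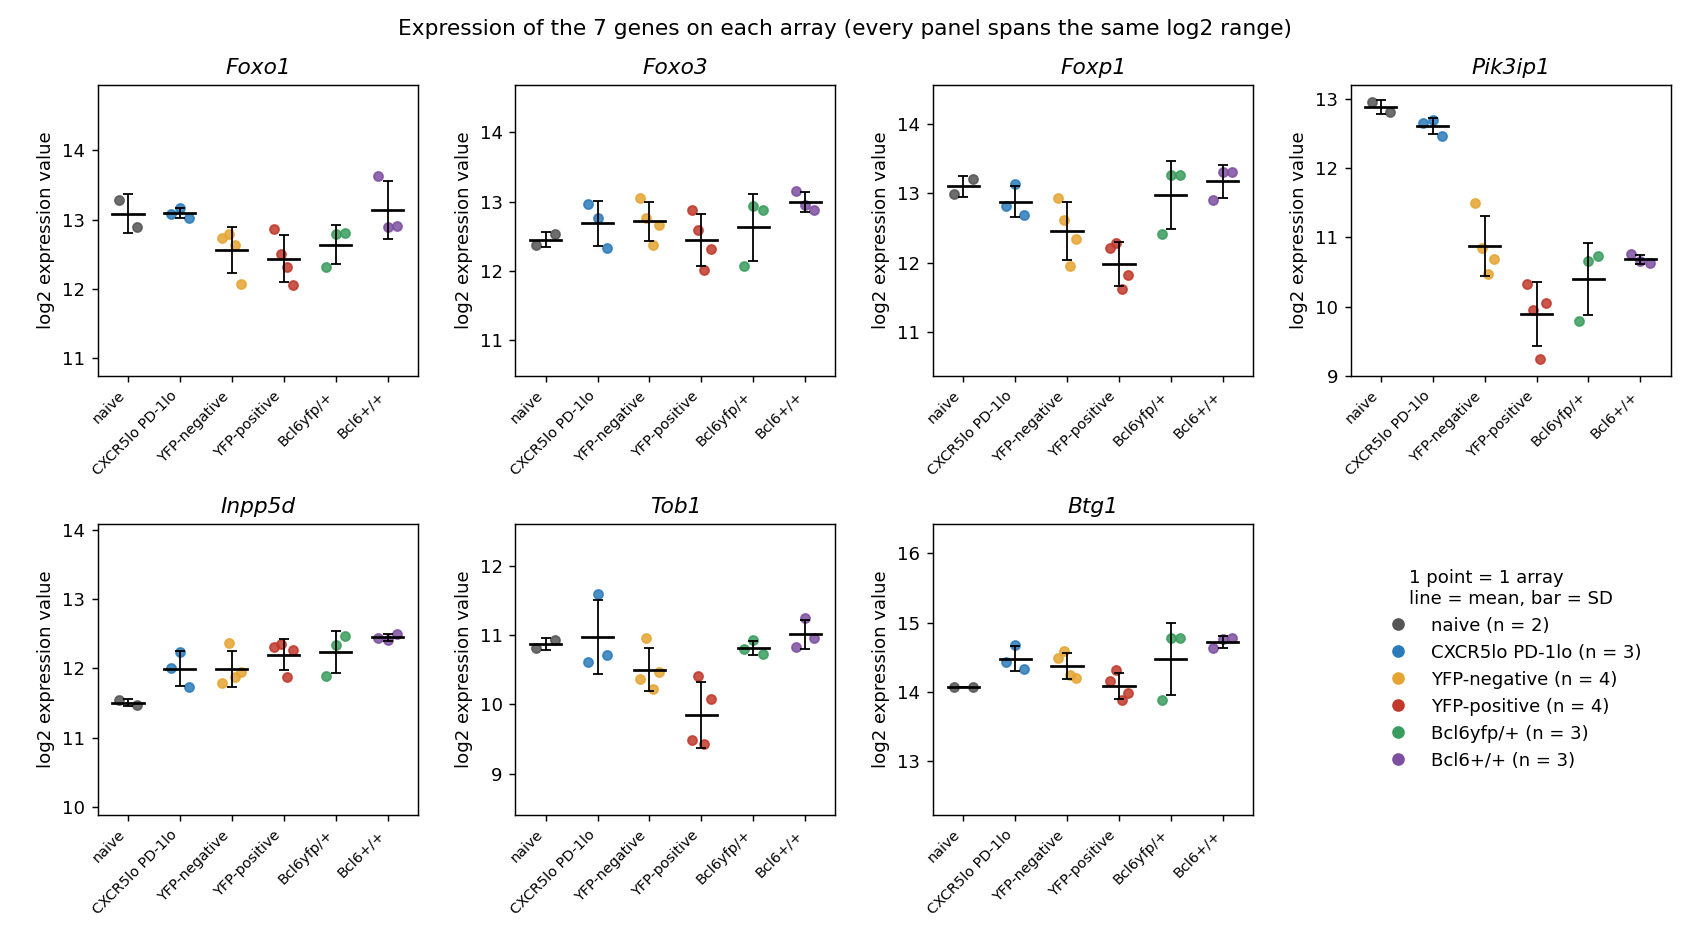
Log2 expression value (vertical axis) of the 7 genes by sorted group (horizontal axis). Each point is an array, lines are group means and bars SD. The YFP-positive arrays lie at 9.25 to 10.33 for Pik3ip1, and Pik3ip1 spans 3.70 log2 units where Btg1 spans 0.90.

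The other 4 genes moved less. Foxo1 averaged log2 13.09 ± 0.28 (SD, n = 2) in naive and 13.09 ± 0.07 (n = 3) in CXCR5lo PD-1lo cells, against 12.56 ± 0.33 (n = 4) in YFP-negative and 12.44 ± 0.34 (n = 4) in YFP-positive cells. All 8 arrays of the YFP sorts lay below all 3 CXCR5lo PD-1lo arrays for Foxo1, while Bcl6+/+ cells had the highest mean, 13.15 ± 0.42 (n = 3). Foxo3 stayed within 1.15 and Btg1 within 0.90 log2 units over the 19 arrays. Foxo3 ranged from 12.01 to 12.88 in YFP-positive cells, its lowest group by mean, and from 12.88 to 13.16 in Bcl6+/+ cells, its highest, and Btg1 means ran from 14.07 in naive to 14.72 ± 0.08 in Bcl6+/+ cells. Neighbouring groups in the order of their levels overlapped throughout for both genes. Inpp5d ran the other way, lowest in naive cells at 11.47 and 11.54, below all other arrays, of which the lowest read 11.73. Its other group means lay between 11.99 ± 0.26 (YFP-negative, n = 4) and 12.45 ± 0.05 (Bcl6+/+, n = 3).

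YFP-positive Tfh cells were first set against CXCR5lo PD-1lo cells of immunized mice. Pik3ip1, Tob1 and Foxp1 fell: 3 of the 7 genes were lower and 0 higher, where 5.39% of all genes were lower and 5.18% higher. Pik3ip1 was 6.54-fold lower (log2 -2.71, SE 0.29, adjusted p = 6.87e-06, limma, n = 4 and 3). Tob1 was 2.18-fold lower (log2 -1.12, SE 0.28, adjusted p = 0.0153), and Foxp1 1.86-fold lower (log2 -0.90, SE 0.27, adjusted p = 0.0444). Arrays of the same replicate number deviated together, and with the replicate number as a block 5 of 7 genes were lower, where that fit called 18.7% of all genes lower and 18.4% higher. The replicate block added Foxo1 (log2 -0.51, SE 0.11, adjusted p = 0.0126, limma) and Btg1 (log2 -0.34, SE 0.07, adjusted p = 0.0108). Foxo3 and Inpp5d passed in neither fit, with log2 differences of -0.24 (SE 0.26) and 0.21 (SE 0.21) without the block. In each of the 3 replicate pairs 6 genes were lower and Inpp5d was higher, where 33.8% of all genes were lower and 35.8% higher in every pair. Pik3ip1 differed by -2.32, -2.75 and -3.22 in pairs 1, 2 and 3, Tob1 by -1.12, -1.18 and -1.30, and Foxp1 by -0.61, -0.86 and -1.07. In bulk RNA of sorted cells, fewer cells that express a gene and less RNA of it per cell cannot be told apart. Without the block, Foxp1 lost its call when any of 6 of the 7 arrays was left out (log2 -0.99 to -0.77, adjusted p up to 0.196) and Tob1 without YFP-positive replicate 3 (log2 -0.98) or CXCR5lo PD-1lo replicate 2 (log2 -0.81), so that either removal left 1 of 7 genes called.

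YFP-negative Tfh cells differed from CXCR5lo PD-1lo cells in 1 of the 7 genes, where 3.39% of all genes were lower and 3.13% higher. Pik3ip1 was 3.32-fold lower (log2 -1.73, SE 0.29, adjusted p = 0.000886, limma, n = 4 and 3), by -1.16 and -1.84 in pairs 1 and 2, with 10.47 against 12.47 in pair 3. With the replicate block 3 genes were lower, where that fit called 12.3% of all genes lower and 11.7% higher. The block added Tob1 (log2 -0.50, SE 0.11, adjusted p = 0.0205) and Foxo1 (log2 -0.39, SE 0.11, adjusted p = 0.046). Foxo1 differed by -0.35, -0.37 and -0.39 in the pairs, the narrowest spread of the called genes. Foxp1 missed the threshold in both fits (log2 -0.42, SE 0.27, adjusted p = 0.543; log2 -0.38, SE 0.15, adjusted p = 0.109 with the block), and its pair 1 difference was 0.10. That is the probe set with the smallest of the 8 Foxp1 differences here, and others passed, as given with the probe sets.

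YFP-positive and YFP-negative cells, which differ in the BCL6 reporter alone among the sorting markers, were compared directly. With no block 0 of the 7 genes passed (2 at an unadjusted p under 0.05), and 0.121% of all genes did (12 genes, and 786 at an unadjusted p under 0.05, limma). With the replicate block Pik3ip1 and Tob1 were lower in YFP-positive cells, where 1.64% of all genes were lower and 1.06% higher. Pik3ip1 was 1.97-fold lower (log2 -0.98, SE 0.17, adjusted p = 0.0458 with the block, against 0.177 without). Tob1 was 1.57-fold lower (log2 -0.65, SE 0.10, adjusted p = 0.0357 with the block, against 0.437). The Pik3ip1 differences were -1.16, -0.90, -1.22 and -0.63 in pairs 1 to 4, and those of Tob1 -0.87, -0.54, -0.80 and -0.38. Pair 4 was day 10 on both sides, pairs 2 and 3 day 7, and pair 1 set a day 7 YFP-positive array against a day 10 YFP-negative one. Foxp1, Foxo3 and Btg1 were also lower in all 4 pairs, so that 5 of 7 genes were, as were 20.7% of all genes. Their log2 differences missed the threshold with the block, at -0.47 (SE 0.13, adjusted p = 0.0834) for Foxp1, -0.27 (SE 0.07, adjusted p = 0.0729) for Foxo3 and -0.29 (SE 0.06, adjusted p = 0.0588) for Btg1.

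**Figure D2:**
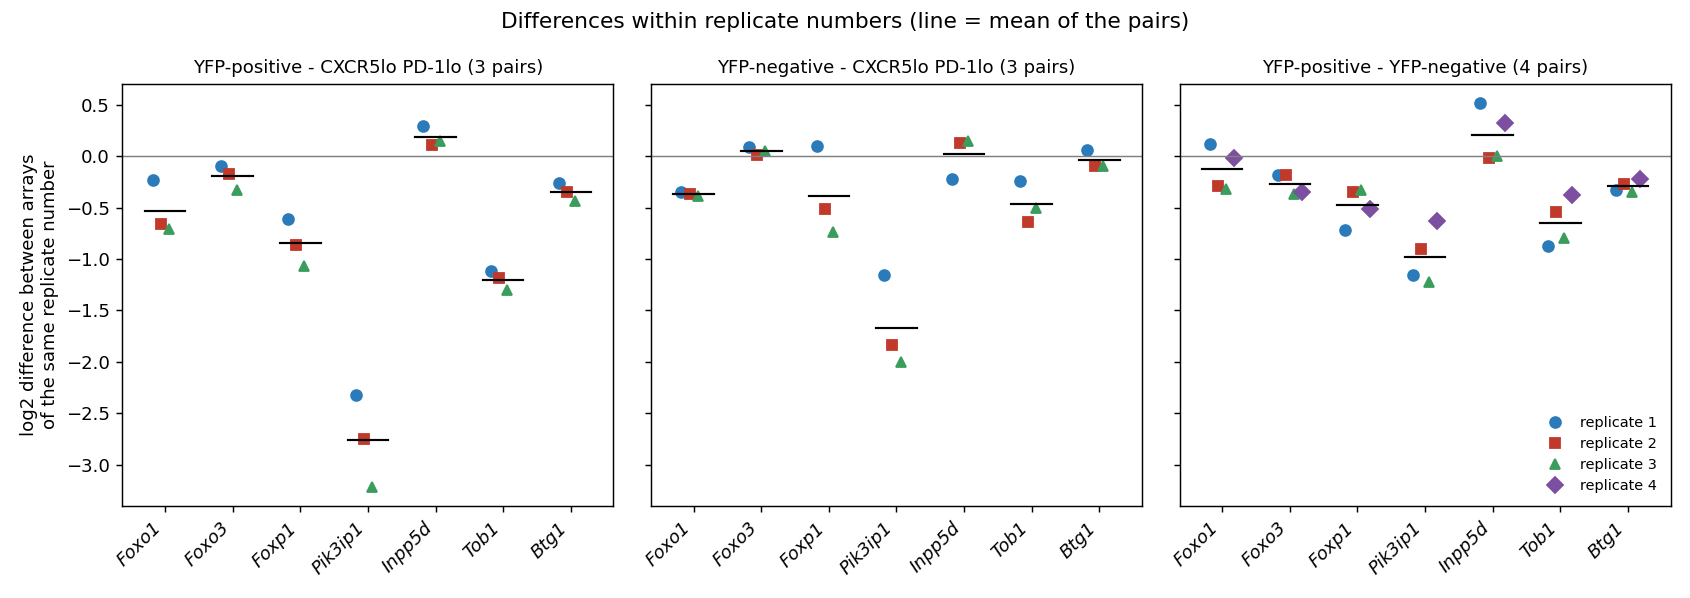
Log2 difference between arrays of the same replicate number (vertical axis) for the 7 genes (horizontal axis) in 3 comparisons; each symbol is 1 replicate pair and lines are means of the pairs. Pik3ip1 and Tob1 lie below 0 in every pair of all 3 panels, and Pik3ip1 reaches -3.22.

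Against naive cells, Pik3ip1 fell in all 4 CXCR5hi PD-1hi groups, and its difference in CXCR5lo PD-1lo cells did not pass (log2 -0.28, SE 0.34, adjusted p = 0.594). These comparisons hang on how arrays are scaled: the median of all genes was 0.37 to 0.64 above naive in the 5 groups as deposited, and -0.08 to 0.10 with quantile normalization. Pik3ip1 was 7.93-fold lower in YFP-positive (log2 -2.99, SE 0.33, adjusted p = 3.26e-06, limma), 4.02-fold in YFP-negative (log2 -2.01, SE 0.33, adjusted p = 0.000268), 5.61-fold in Bcl6yfp/+ (log2 -2.49, SE 0.34, adjusted p = 5.59e-05) and 4.59-fold in Bcl6+/+ cells (log2 -2.20, SE 0.34, adjusted p = 0.00017). Relative to the median of all genes these changes were log2 -3.38, -2.38, -2.86 and -2.84. The Tfh calls of Pik3ip1 held with quantile normalization (log2 -3.49 to -2.44) and without any 1 array (adjusted p at most 0.00669). In arrays that share a normalization set, Pik3ip1 differed from naive by log2 -2.90 in YFP-positive, -2.26 in YFP-negative and -3.01 in Bcl6yfp/+ cells, 1 pair each.

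In YFP-positive cells 3 of the 7 genes were lower than in naive cells and 1 was higher, where 6.46% of all genes were lower and 22.4% higher. Beside Pik3ip1, Foxp1 fell 2.16-fold (log2 -1.11, SE 0.31, adjusted p = 0.0124) and Tob1 2.03-fold (log2 -1.02, SE 0.32, adjusted p = 0.0246), while Inpp5d rose 1.62-fold (log2 0.69, SE 0.23, adjusted p = 0.0344). With quantile normalization Foxp1 (log2 -1.52) and Tob1 (log2 -1.58) passed and Inpp5d did not (log2 0.22, adjusted p = 0.453). The Foxp1 call was lost without naive replicate 2 (adjusted p = 0.119), and the Tob1 call without YFP-positive replicate 1 or 3 or either naive array (log2 -1.08 to -0.87). YFP-negative cells had 1 gene lower, Pik3ip1, and 0 higher, where 4.64% of all genes were lower and 16.5% higher. The Bcl6yfp/+ cells had Pik3ip1 lower and Inpp5d higher (log2 0.73, SE 0.25, adjusted p = 0.0455), with 5.06% of all genes lower and 15.4% higher. The Bcl6+/+ cells also had Pik3ip1 lower and Inpp5d higher (log2 0.94, SE 0.25, adjusted p = 0.00809), with 4.45% lower and 31.5% higher. With the normalization set as a block, Inpp5d passed in YFP-positive cells (log2 0.67, SE 0.17, adjusted p = 0.0102, limma). In that fit it did not pass in Bcl6yfp/+ (log2 0.42, adjusted p = 0.129) or Bcl6+/+ cells (log2 0.47, adjusted p = 0.196). As deposited, Inpp5d stood only 0.30, 0.36 and 0.30 log2 above the median of all genes in YFP-positive, Bcl6yfp/+ and Bcl6+/+ cells, and 0 of these 3 calls as deposited held with quantile normalization. The Inpp5d call was lost in YFP-positive cells when any of 5 of the 6 arrays was left out, namely YFP-positive replicate 1, YFP-positive replicate 2, YFP-positive replicate 4, naive replicate 1, naive replicate 2 (adjusted p up to 0.182). It was lost in Bcl6yfp/+ cells without any of 4 of 5, namely naive replicate 1, Bcl6yfp/+ replicate 2, Bcl6yfp/+ replicate 3, naive replicate 2 (adjusted p up to 0.191), and in Bcl6+/+ cells without naive replicate 2 (adjusted p = 0.0609). In CXCR5lo PD-1lo cells 0 of the 7 genes differed from naive (0 at an unadjusted p under 0.05), where 11.9% of all genes did and 2962 genes had an unadjusted p under 0.05. With quantile normalization, however, Foxp1 was lower there (log2 -0.68, SE 0.20, adjusted p = 0.0318, limma). In that fit Foxp1 was also lower than naive in YFP-negative (log2 -1.02, SE 0.19, adjusted p = 0.000758), Bcl6yfp/+ (log2 -0.56, SE 0.20, adjusted p = 0.0488) and Bcl6+/+ cells (log2 -0.57, SE 0.20, adjusted p = 0.04). Calls over all genes split as 77.6% higher in YFP-positive against naive as deposited and 46.1% with quantile normalization. The same shares were 78% and 45.1% in YFP-negative, 75.3% and 57.4% in Bcl6yfp/+, 87.6% and 61.7% in Bcl6+/+, and 86.8% and 46.1% in CXCR5lo PD-1lo cells.

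For Foxo1 the comparison with naive cells depended on the scaling of the arrays and on the normalization set. The deposited arrays fell into 7 sets with nearly identical value distributions, and only sets 4 and 5 held a naive array. As deposited, Foxo1 differed from naive by log2 0.00 (SE 0.30) in CXCR5lo PD-1lo, -0.53 (SE 0.29) in YFP-negative and -0.65 (SE 0.29, adjusted p = 0.0974) in YFP-positive cells, and none passed. With quantile normalization Foxo1 was lower in YFP-positive (log2 -1.07, adjusted p = 0.0021, limma), YFP-negative (log2 -0.92, adjusted p = 0.00748) and Bcl6yfp/+ cells (log2 -0.90, adjusted p = 0.0131). In that fit it did not pass in CXCR5lo PD-1lo (log2 -0.47, adjusted p = 0.237) or Bcl6+/+ cells (log2 -0.62, adjusted p = 0.0681). With the set as a block, Foxo1 was lower in CXCR5lo PD-1lo (log2 -0.77, SE 0.17, adjusted p = 0.0119), YFP-negative (log2 -1.16, SE 0.15, adjusted p = 0.000381), YFP-positive (log2 -1.29, SE 0.15, adjusted p = 0.000187) and Bcl6yfp/+ cells (log2 -0.57, SE 0.17, adjusted p = 0.0357). The direct pairs behind this were 12.06 and 12.08 in the YFP-positive and YFP-negative arrays of set 4 against 13.29 in its naive array, and 12.32 in the Bcl6yfp/+ array of set 5 against 12.89 in its naive array. No CXCR5lo PD-1lo array shares a set with a naive one, so its value rests on the YFP sorts as a bridge. Foxp1 likewise read 12.41 in the Bcl6yfp/+ array of set 5 and 13.26 on both Bcl6yfp/+ arrays of set 6. Within set 5 Foxp1 was 0.80 below naive, which the group means (log2 -0.12, SE 0.32) do not show. Per the labels, RNA of the 7 arrays of sets 5 to 7 was extracted with TRIzol or an RNeasy kit and that of the other arrays with TRIzol; the part of extraction was not tested.

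**Figure D3:**
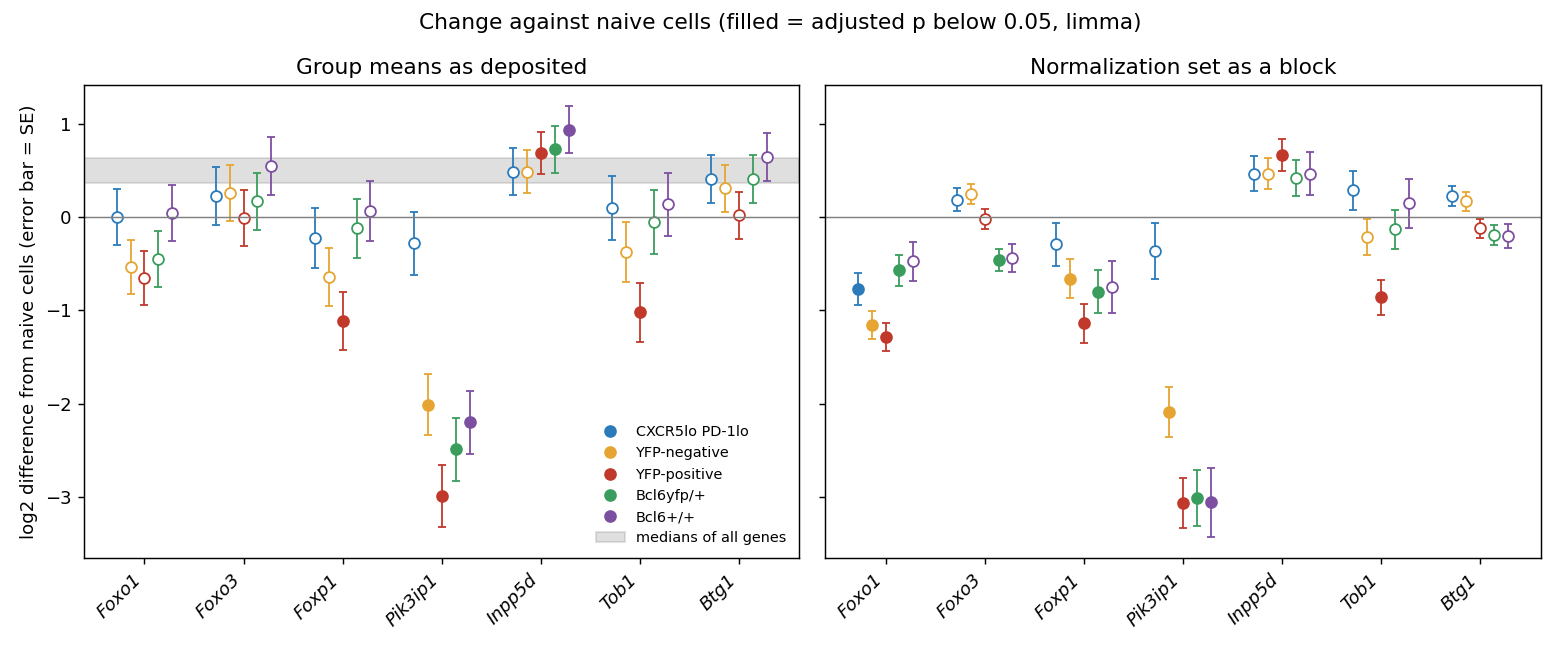
Log2 difference from naive cells (vertical axis, bars SE) for the 7 genes in 5 groups, from the group means as deposited (left) and from the fit blocked on normalization sets (right). Filled points pass an adjusted p of 0.05, and the grey band spans the medians of all genes, 0.37 to 0.64; Foxo1 has no filled point on the left and 4 on the right.

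The 8 Foxp1 probe sets differed in size of change but not in direction between the YFP-positive and CXCR5lo PD-1lo cells. All 8 were lower, 4 of them past the threshold when all probe sets were adjusted together, from log2 -2.29 to -0.90. The probe set used above, 1435222_at, had the smallest difference and did not pass in that adjustment (adjusted p = 0.0636), and 1421141_a_at had the largest (log2 -2.29, SE 0.26, adjusted p = 1.94e-05). At 1421141_a_at the group means were 9.12 ± 0.24 (SD, n = 2) in naive, 9.16 ± 0.49 (n = 3) in CXCR5lo PD-1lo, 7.60 ± 0.13 (n = 4) in YFP-negative and 6.87 ± 0.39 (n = 4) in YFP-positive cells. Between YFP-negative and CXCR5lo PD-1lo cells all 8 were lower as well, from log2 -1.56 to -0.42, and 1421141_a_at (log2 -1.56, SE 0.26, adjusted p = 0.00126) and 1421142_s_at (log2 -1.36, SE 0.35, adjusted p = 0.0341) passed. The probe sets parted most in the genotype groups: Bcl6+/+ cells differed from naive by log2 0.07 (SE 0.33) at 1435222_at but by -2.16 (SE 0.31, adjusted p = 9.05e-05) at 1421141_a_at and -3.27 (SE 0.58, adjusted p = 0.00061) at 1438802_at. At 1438802_at the naive arrays themselves read 8.96 and 11.09. Which transcripts each probe set detects is not given in the sources used here. Of the 4 Foxo1 probe sets all had a lower mean in YFP-positive than in CXCR5lo PD-1lo cells, and 1416981_at passed (log2 -1.26, SE 0.34, adjusted p = 0.0314, limma). The direction of 1456529_at says little. Its means were 3.04 and 3.62 in these groups, under the filter level of log2 4, and its pair differences -0.01, 0.00 and -0.94. Both Pik3ip1 probe sets passed, the other one, 1439087_a_at, with the larger fall (log2 -3.60, SE 0.56, adjusted p = 0.000486). The 3 Btg1 probe sets lay between -0.39 and -0.31 in that comparison, but against naive 1442018_at, alone of the 3, rose in CXCR5lo PD-1lo (log2 1.41, SE 0.30, adjusted p = 0.00637), YFP-negative (log2 1.35, SE 0.29, adjusted p = 0.00314) and YFP-positive cells (log2 1.03, SE 0.29, adjusted p = 0.0148).

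**Figure D4:**
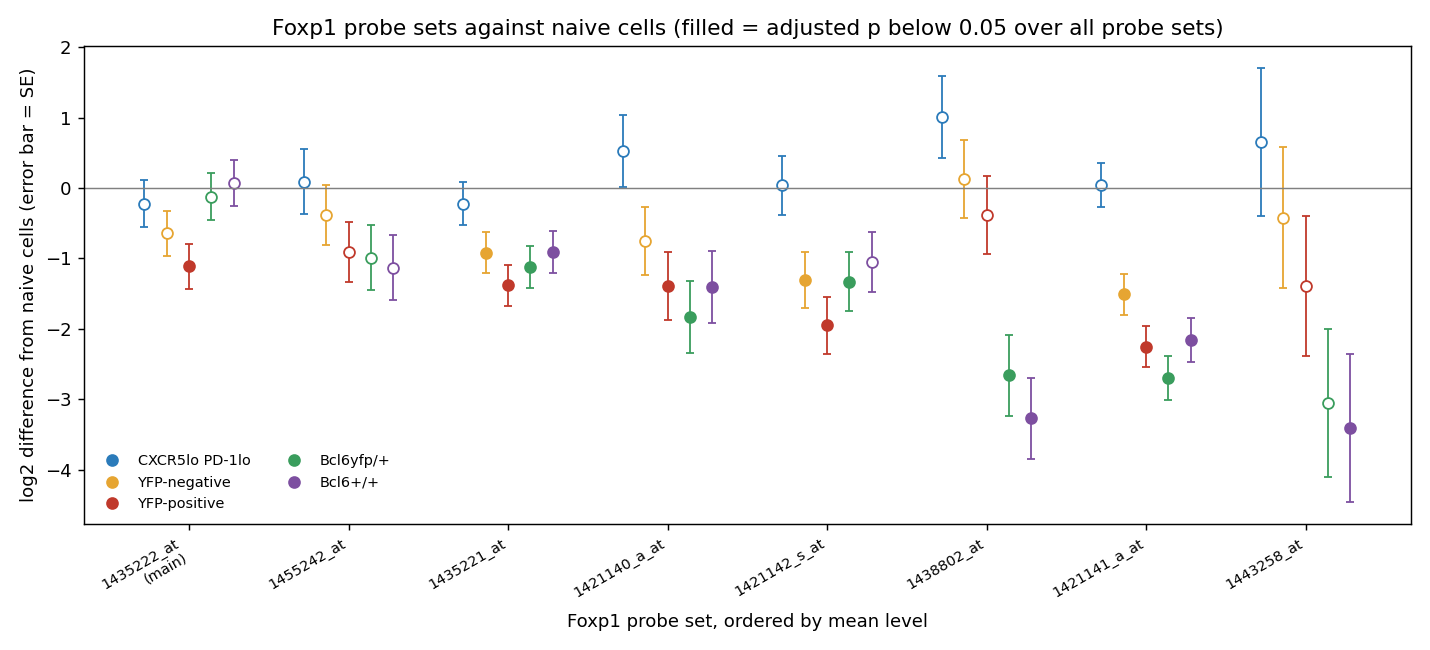
Log2 difference from naive cells (vertical axis, bars SE) at the 8 Foxp1 probe sets (horizontal axis, highest mean level first) in 5 groups. Filled points pass an adjusted p of 0.05 over all probe sets. YFP-positive cells run from -2.25 to -0.38, and Bcl6+/+ cells from -3.41 to 0.07. The -3.41 is that of 1443258_at, where Bcl6+/+ arrays read 2.15 to 3.67, under the filter of log2 4. The naive arrays read 4.79 and 7.36 there.

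Tfh cells with and without the reporter allele were compared as well. Between Bcl6yfp/+ and Bcl6+/+ cells 0 of 7 genes passed, where 0% of all genes did (limma; 0 of the 7 and 287 of all genes at an unadjusted p under 0.05), and with the replicate block 0 of 7 passed as well. The largest of the 7 differences was that of Foxo1 (log2 -0.51, SE 0.27, adjusted p = 0.868). In set 6, which holds 2 arrays of each genotype, the Foxo1 difference was -0.10 and that of Pik3ip1 0.05. Day 10 and day 7 cells, compared within the groups that hold both days, differed in 0 of the 7 genes (0 at an unadjusted p under 0.05), where 0.232% of all genes did (23 genes, 1011 at an unadjusted p under 0.05). The log2 day effects ran from -0.19 (SE 0.21) for Foxo1 to 0.26 (SE 0.24) for Pik3ip1.

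Paralogs were read beside the 7 genes. Of the FOXO and FOXP paralogs 3 of 5 were measured: Foxo4, Foxp3 and Foxp4. Between YFP-positive and CXCR5lo PD-1lo cells 0 of the 3 passed without a block, with log2 differences of -0.65 (SE 0.32) for Foxo4 and -0.38 (SE 0.32) for Foxp4. With the replicate block, which called 18.7% of all genes lower, Foxo4 was lower (log2 -0.62, SE 0.08, adjusted p = 0.00197). Foxp3, the regulatory T cell factor, was called lower in that fit too, but at levels around or under the filter of log2 4, 3.38 to 5.14 in CXCR5lo PD-1lo and 2.47 to 3.92 in YFP-positive cells, so no size is given. Against naive cells Foxp4 was higher in YFP-positive (log2 1.14, SE 0.37, adjusted p = 0.0281) and CXCR5lo PD-1lo cells (log2 1.52, SE 0.39, adjusted p = 0.0172). Tob2, the closest relative of Tob1, differed by log2 -0.12 (SE 0.23) and Btg2, that of Btg1, by -0.31 (SE 0.49) between YFP-positive and CXCR5lo PD-1lo cells, neither past the threshold. Of 12 genes of CCR4-NOT and poly(A) binding, the partners of TOB1 and BTG1, 10 were measured and 0 passed in that comparison without a block; their median log2 difference was -0.16, beside -0.07 over all genes. With the replicate block 1 of the 10 was lower, where 18.7% of all genes were: Cnot4, a ubiquitin ligase of the complex (log2 -0.26, SE 0.07, adjusted p = 0.022).

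Known target genes of FOXO proteins were next. Their list, like the other lists read here, was chosen with earlier results of these data known. Of 18 listed FOXO target genes 16 were measured, and between YFP-positive and CXCR5lo PD-1lo cells 8 were lower and 3 higher, where 5.39% of all genes were lower and 5.18% higher. Their median log2 difference was -0.75, beside -0.07 over all genes. Klf2, a quiescence and homing factor, differed by log2 -6.66 (SE 0.49, adjusted p = 9.72e-08), Il7r, the interleukin receptor chain for survival, by -6.64 (SE 0.72, adjusted p = 8.65e-06), and Ccr7, a lymph node homing receptor, by -5.68 (SE 1.04, adjusted p = 0.00152). The 3 that rose, named after their values were seen, were Bnip3 (log2 2.51), Gadd45a (log2 1.80) and Gabarapl1 (log2 1.22), genes of mitophagy, growth arrest and autophagy. In YFP-negative against CXCR5lo PD-1lo cells 6 of the 16 were lower and 2 higher, where 3.39% and 3.13% of all genes were, with Klf2 at -2.99 (SE 0.49), Il7r at -3.93 (SE 0.72) and Ccr7 at -3.94 (SE 1.04); both comparisons share the CXCR5lo PD-1lo arrays. Between YFP-positive and YFP-negative cells Klf2 (log2 -3.67, SE 0.46, adjusted p = 0.00191) and S1pr1, the receptor for exit from lymph nodes (log2 -3.33, SE 0.50, adjusted p = 0.0121), were lower and 0 of 16 higher, where 0.121% of all genes passed. With the replicate block 4 of 16 were lower, where 1.64% of all genes were, among them Il7r (log2 -2.72, SE 0.34, adjusted p = 0.029). Gabarapl1 was already higher in CXCR5lo PD-1lo cells, at 8.02 to 9.31, than in naive cells, whose arrays read 3.62 and 4.16, around the filter of log2 4 (adjusted p = 6.4e-07, limma).

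**Figure D5:**
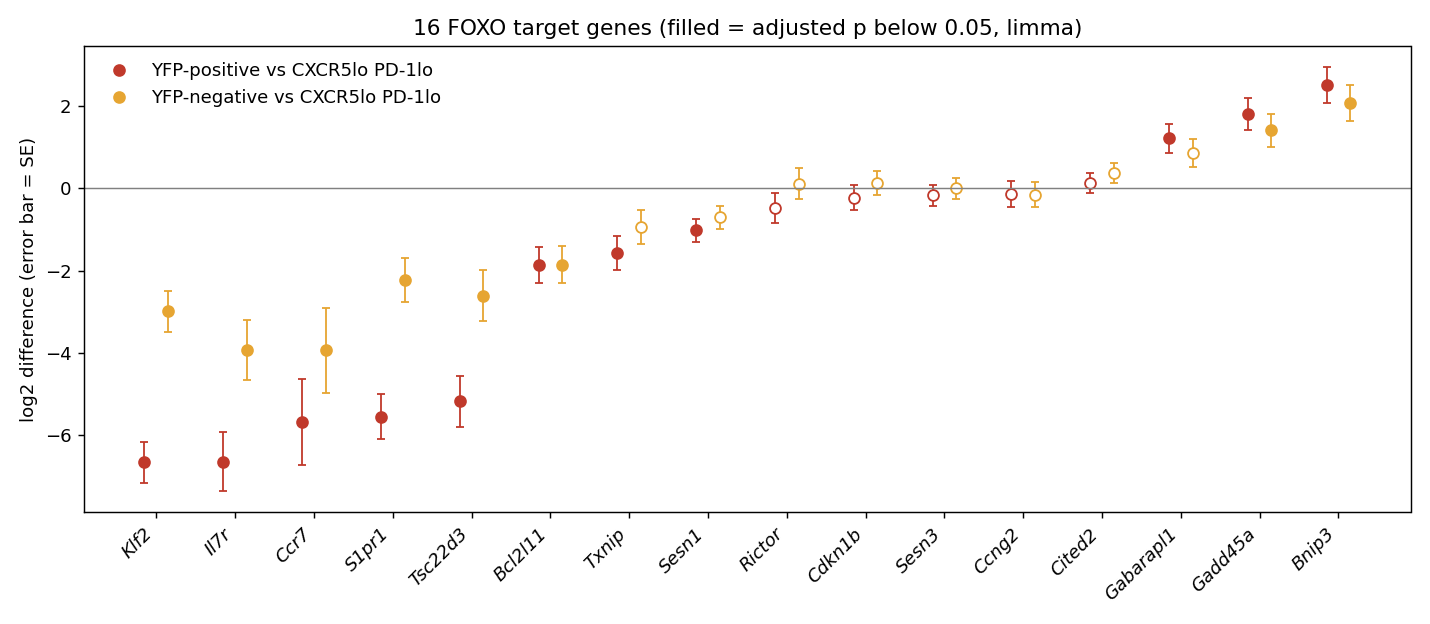
Log2 difference from CXCR5lo PD-1lo cells (vertical axis, bars SE) of the 16 measured FOXO target genes (horizontal axis) in YFP-positive and YFP-negative cells. Filled points pass an adjusted p of 0.05; Klf2 reads -6.66 and -2.99, and 3 genes lie above 0 with a filled YFP-positive point.

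Of 9 other PI3K brakes listed, 8 were measured, and between YFP-positive and CXCR5lo PD-1lo cells 2 were higher and 0 lower, with a median of 0.21. Without a block, the lists in this paragraph are read beside the same 5.18% of all genes higher and 5.39% lower. With the replicate block the shares are 18.4% higher and 18.7% lower. Phlpp1 (log2 1.23, SE 0.32, adjusted p = 0.0176) and Phlpp2 (log2 1.03, SE 0.31, adjusted p = 0.0466), phosphatases that act on AKT, rose. Against naive cells Inppl1, the paralog of Inpp5d that encodes SHIP2, was higher in YFP-positive cells (adjusted p = 0.00219, limma), at 4.97 to 7.30 against 2.36 and 2.47, which is under the filter and in the range of the array medians. With the replicate block 2 of the 8 brakes were higher and 1 lower in YFP-positive than in CXCR5lo PD-1lo cells. The lower one was Pik3r1, the main regulatory subunit of PI3K (log2 -0.90, SE 0.10, adjusted p = 0.00124). Of 17 genes of the PI3K, AKT and mTOR pathway 15 were measured, and in the comparison with no block 3 were lower and 0 higher, with a median of 0.01. They were Pik3r5, a regulatory subunit of the PI3K isoform downstream of G protein-coupled receptors (log2 -4.79, SE 0.45, adjusted p = 1.75e-06), the kinase Sgk1 (log2 -1.35, SE 0.26, adjusted p = 0.00228) and the catalytic subunit Pik3cd (log2 -0.68, SE 0.20, adjusted p = 0.0429). Of the 9 FOXO regulators 0 passed there without a block. With it 1 of the 9 was lower, where 18.7% of all genes were: Sirt1, a deacetylase (log2 -0.61, SE 0.09, adjusted p = 0.00299). Of 11 measured of 12 other quiescence genes, Bach2, a repressor that keeps lymphocytes undifferentiated, was lower (log2 -5.05, SE 0.50, adjusted p = 2.69e-06) and Vsir, the inhibitory receptor VISTA, higher (log2 0.78, SE 0.20, adjusted p = 0.0191). Of the 9 proliferation genes 2 were higher in YFP-positive than in CXCR5lo PD-1lo cells, Cdk1 (log2 2.84, SE 0.84, adjusted p = 0.0393) and Tyms (adjusted p = 0.0107), which read 2.88 to 4.62 in CXCR5lo PD-1lo cells, around the filter. Of the 9, 5 were higher with the replicate block, where 18.4% of all genes were. Their part in the falls of Tob1 and Foxp1 was not tested.

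The 7 genes varied together to different degrees across the 19 arrays. The highest correlations between them were 0.81 for Foxo3 with Btg1 and 0.80 for Foxp1 with Tob1, and the lowest -0.48 for Pik3ip1 with Inpp5d (Pearson r, 19 arrays, which share groups and normalization sets). Among 5165 genes whose group means spanned at least 1 log2 unit, those most like Pik3ip1 were Sgms1, Slc49a4 and Rasa3, each at r = 0.95. Foxp1 was most like Lcor (r = 0.95), St6galnac2 (0.89) and Rffl (0.89), and Btg1 most like Clec2d (0.96), Clk2 (0.95) and Tsr3 (0.94). Foxo1 was followed best by Atad3a (0.90), Foxo3 by Zfp952 (0.95) and Inpp5d by Tmem126a (0.94), while Tob1 had no gene above 0.83, the value of Asb13 and Lgals4.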

How the data were processed

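Expression was read on Affymetrix arrays, 1 per sorted sample, after cDNA amplification and biotin labelling. The authors deposited log2 values for each probe set, made with GCRMA according to the submitters' processing notes; its version is not given in the sources used here. GCRMA corrects background by probe sequence and evens out the arrays run together, so values of separate runs can differ in scale. Probe sets were named through GEO's platform annotation (34945 of 45101 with 1 symbol, 932 with several), kept at log2 4 or more on at least 2 arrays, and each of 9930 genes took the probe set with the highest mean. Array medians ran from 2.40 to 2.99. Arrays whose sorted values differed by under 0.06 on average formed 7 normalization sets. Group means over all 19 arrays were fitted with limma 3.58.1 in R 4.3.3, which shares 1 spread among groups. P-values were adjusted by Benjamini-Hochberg over all genes of a comparison, and a gene was called below 0.05. The model without a block was tested on simulated data, for YFP-positive against CXCR5lo PD-1lo cells only. The simulated noise was independent between arrays, without set or replicate effects, so that test does not bear on such effects or on the blocked fits.

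For the replicate block, arrays of the 3 sorts of the reporter cells, or of both genotypes, were fitted with the replicate number as a term. The numbers pair the arrays by the data, not by a label: deviations from the group mean correlated at 0.27 to 0.87 in every same-numbered pair. For the genotypes this is weak ground, since differently numbered arrays of set 6 also correlated, at 0.43 and 0.56. Among the 3 sorts, YFP-negative replicate 4 and CXCR5lo PD-1lo replicate 3 correlated at 0.39, above the lowest same-numbered value. Between the YFP sorts, differently numbered arrays reached 0.25, against 0.45 or more for same-numbered ones. Replicate numbers 1 to 4 of the sorts coincide with normalization sets 1 to 4. A shared sample and a shared set can therefore not be told apart there, apart from replicate number 1. By the labels YFP-negative replicate 1 was taken at day 10, and YFP-positive and CXCR5lo PD-1lo replicate 1 at day 7. That YFP-negative array thus shares a set with them but not a sample. The genes, lists and comparisons were chosen with earlier results of these data known. All 7 genes are named; a gene of a list is named where it passed and is among the 3 largest changes of its list there, or is the closest paralog of one of the 7. Likeness is the highest correlation over the arrays. Alternatives were the filter, quantile normalization, sets as fixed or random block, day, the arrays fitted, the probe set rule, the variance model and leaving out each array.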

Additional observations from a re-analysis of the deposited data

How the results depend on the processing

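No value of the 7 genes that passed with or without the replicate block changed direction under any alternative run. Of such values 263 stayed on their side of the threshold, 39 lost the call and 20 gained it. Values that passed in neither fit were not followed, and some did turn. Against naive, Foxo3 in Bcl6yfp/+ cells read log2 0.17 as deposited and -0.46 with the set as a block (adjusted p = 0.0201, limma). In Bcl6+/+ cells it read 0.55 and -0.44 (adjusted p = 0.0667 with the block). Counts of the 7 genes called that moved by over 1.5 times are given here, and the cause was not tested. With quantile normalization, 1 gene passed in CXCR5lo PD-1lo and 3 in YFP-negative cells against naive, and 1 between YFP-positive and YFP-negative cells. The normalization set as a fixed block gave 1, 3, 4 and 1 for CXCR5lo PD-1lo, YFP-negative, Bcl6yfp/+ and Bcl6+/+ cells against naive, 6 and 3 for YFP-positive and YFP-negative against CXCR5lo PD-1lo cells, and 5 between the latter sorts; that fit called 4439, 3026 and 1541 of all 9930 genes there, against 1049, 648 and 12. As a random block it gave 1, 4 and 4 for CXCR5lo PD-1lo, YFP-negative and Bcl6yfp/+ cells against naive, then 5, 4 and 5. With only the arrays of the groups compared, 2 passed in YFP-positive and 1 in Bcl6yfp/+ cells against naive and 1 between YFP-positive and CXCR5lo PD-1lo cells. Day as a covariate, or all probe sets tested together, left 1 in Bcl6yfp/+ cells against naive, and 2 rather than 3 between YFP-positive and CXCR5lo PD-1lo cells, as did no filter. The mean of a gene's probe sets gave 2 between YFP-negative and CXCR5lo PD-1lo cells. The replicate block gave 5, 3 and 2 for the sorts and changed no call between the genotypes. Leaving out 1 array gave 1 to 3 genes for YFP-positive and for Bcl6yfp/+ cells against naive, 1 to 2 for Bcl6+/+ cells against naive, and 1 to 3 for YFP-positive against CXCR5lo PD-1lo cells; without a naive array the remaining one is assumed to vary like the other groups.

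Over all genes, 1049 were called between YFP-positive and CXCR5lo PD-1lo cells, and 844 to 4439 under the alternatives that keep all arrays or groups. The same counts were 648 and 492 to 3069 for YFP-negative against CXCR5lo PD-1lo cells, 12 and 2 to 2056 between the YFP sorts, 0 and 0 to 15 between genotypes and 23 and 0 to 55 for day. Against naive they were 1185 and 416 to 2319 for CXCR5lo PD-1lo, 2863 and 2491 to 4929 for YFP-positive, 2098 and 1908 to 4147 for YFP-negative, 2036 and 1149 to 3236 for Bcl6yfp/+, and 3566 and 1850 to 3776 for Bcl6+/+ cells. Leaving out 1 array gave 0 to 395 genes for day, 4 to 307 between the YFP sorts, 654 to 1051 and 414 to 605 for YFP-positive and YFP-negative against CXCR5lo PD-1lo cells, and 0 between genotypes. Against naive it gave 574 to 1151 for CXCR5lo PD-1lo, 1588 to 3186 for YFP-positive, 1124 to 2108 for YFP-negative, 1185 to 4454 for Bcl6yfp/+ and 1783 to 3491 for Bcl6+/+ cells. Naive cells had 2 arrays, which limits every comparison with them.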
